A study of Mus musculus with 36 samples.

Results

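The Serpina3 gene cluster of the mouse was described in 3 liver cell types by the 8 genes Serpina3c, Serpina3f, Serpina3g, Serpina3h, Serpina3i, Serpina3k, Serpina3m and Serpina3n. They were taken by symbol from the 24421 gene symbols counted in each of 36 RNA-seq libraries, and all 8 were found. The libraries hold total RNA of C57BL/6 mouse liver in 9 groups of 4. Hepatic stellate cells (HSCs, the vitamin A-storing pericytes of the sinusoid), liver sinusoidal endothelial cells (LSECs, the lining of these capillaries) and hepatocytes (the parenchymal cells) were each sampled in 3 conditions. The condition called WT stands for PBS-injected mice in the series' design text, and the others were taken 12 h and 36 h after Kupffer cells, the resident macrophages, were depleted with diphtheria toxin (DT). The labels give strain and tissue for all groups, and name no toxin receptor allele, sex, age or number of animals behind a library. Nothing in them says that libraries of a group are separate animals, so the p-values below measure the spread between these samples only.

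Serpins are protease inhibitors that work as bait. An exposed reactive centre loop is cut by the target protease, after which the serpin folds around it and traps the enzyme, so the residues of the loop decide which protease is caught. Human SERPINA3, alpha-1-antichymotrypsin, is a single gene whose product inhibits cathepsin G and is secreted by the liver as an acute phase protein. In the mouse the locus has expanded into a row of neighbouring copies whose bodies are much alike and whose loops differ. Serpina3k encodes contrapsin, an abundant plasma protein of hepatocytes, and Serpina3n encodes a secreted inhibitor of granzyme B and leukocyte elastase that is widely used as a marker of inflamed or injured tissue. Serpina3g, also called Spi2A, lacks a signal for secretion and inhibits lysosomal cathepsins inside cells, and it is known as an interferon and NF-kB target in leukocytes. Acute phase genes of this kind are driven in the liver by interleukin-6 through STAT3, together with C/EBP and NF-kB factors and glucocorticoid.

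On GRCm38 (mm10), RefSeq places 7 of the genes on the plus strand of chromosome 12, from Serpina3f at 104214544-104221129 through Serpina3g (104236147-104241939), Serpina3h (104247896-104254405), Serpina3i (104263045-104269509), Serpina3k (104338486-104345739) and Serpina3m (104387157-104394259) to Serpina3n (104406646-104414334). Serpina3c lies before them on the minus strand at 104146907-104153929. Serpina3h is annotated as a transcribed pseudogene and the other 7 as protein coding. The exon stretch that encodes the reactive centre loop is shown because it is where the copies differ most. It is read from the GENCODE vM21 transcripts in the direction of the gene, with the 8 codons of the hinge and the last 3 codons in lower case and the variable loop between them in capitals.
Serpina3c (chr12:104147307-104147387, minus strand): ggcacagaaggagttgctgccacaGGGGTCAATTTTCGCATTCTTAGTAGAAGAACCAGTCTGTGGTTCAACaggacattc
Serpina3f (chr12:104220245-104220337, plus strand): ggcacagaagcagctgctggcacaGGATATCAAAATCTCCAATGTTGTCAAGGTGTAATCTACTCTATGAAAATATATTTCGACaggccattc
Serpina3g (chr12:104241072-104241161, plus strand): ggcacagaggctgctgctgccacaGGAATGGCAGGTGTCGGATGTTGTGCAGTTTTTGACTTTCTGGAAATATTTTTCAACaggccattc
Serpina3h (chr12:104253511-104253600, plus strand): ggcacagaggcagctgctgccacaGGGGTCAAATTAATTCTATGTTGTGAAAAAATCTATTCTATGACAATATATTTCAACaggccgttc
Serpina3i (chr12:104268480-104268569, plus strand): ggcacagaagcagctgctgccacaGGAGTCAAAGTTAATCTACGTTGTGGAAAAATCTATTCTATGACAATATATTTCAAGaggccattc
Serpina3k (chr12:104345269-104345352, plus strand): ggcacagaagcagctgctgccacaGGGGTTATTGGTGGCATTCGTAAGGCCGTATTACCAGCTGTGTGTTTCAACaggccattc
Serpina3m (chr12:104393769-104393858, plus strand): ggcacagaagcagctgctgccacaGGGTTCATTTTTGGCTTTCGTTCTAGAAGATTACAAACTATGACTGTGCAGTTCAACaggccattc
Serpina3n (chr12:104413448-104413537, plus strand): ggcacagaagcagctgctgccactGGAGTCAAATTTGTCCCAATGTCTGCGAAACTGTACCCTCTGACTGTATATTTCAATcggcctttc
The variable part ran from 48 bases in Serpina3c to 60 in Serpina3f. Serpina3h and Serpina3i, which lie next to each other, were alike over 87.7% of the longer loop, and Serpina3f and Serpina3i over 73.3%. Serpina3k and Serpina3m were alike over 61.4% of the loop but over 92.0% of 1248 aligned coding bases. Serpina3g and Serpina3m had the least in common, 40.4% of the loop.

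RefSeq promoter sequences were at hand for Serpina3c, Serpina3f, Serpina3g, Serpina3i and Serpina3n, 5 of the 8. They are shown because Serpina3f, Serpina3g and Serpina3i moved together in the libraries. In HSCs Serpina3c moved with these genes too (Pearson r of 0.85 to 0.919). Each window of 81 bases lies before the annotated start on GRCm38.p6, is written in the direction of the gene and shows in capitals any match to a STAT motif (TTCNNNGAA) or an NF-kB motif (GGG, 2 bases of any kind, TTTCC).
Serpina3c (chr12:104153967-104154047, minus strand): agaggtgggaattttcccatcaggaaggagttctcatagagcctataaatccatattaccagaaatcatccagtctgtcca
Serpina3f (chr12:104214384-104214464, plus strand): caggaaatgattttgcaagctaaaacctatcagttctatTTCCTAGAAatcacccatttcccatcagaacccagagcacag
Serpina3g (chr12:104236052-104236132, plus strand): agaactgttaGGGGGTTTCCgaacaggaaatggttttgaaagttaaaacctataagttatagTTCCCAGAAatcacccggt
Serpina3i (chr12:104262962-104263042, plus strand): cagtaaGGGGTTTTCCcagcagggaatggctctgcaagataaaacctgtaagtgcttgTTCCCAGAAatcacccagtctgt
Serpina3n (chr12:104406533-104406613, plus strand): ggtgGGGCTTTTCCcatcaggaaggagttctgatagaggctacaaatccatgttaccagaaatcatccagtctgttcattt
Counted from the gene starts given above, the STAT motif began 33 bases before the start in Serpina3g, 25 in Serpina3i and 121 in Serpina3f. An NF-kB match began 85 bases before the start in Serpina3g, 77 in Serpina3i and 109 in Serpina3n. The promoter entries of Serpina3i and Serpina3n are laid out from a start further downstream, from which the same matches lie 102 (STAT) and 154 bases (NF-kB) before in Serpina3i and 171 bases before in Serpina3n. The window of Serpina3c held neither. Both strands were searched over the whole promoter entry, from before to just after the start, and the 2 motifs did not overlap. Of 32851 promoters of the same length, 8.3% held the STAT motif and 1.63% the NF-kB motif. An interferon-stimulated response element (GAAA, 2 bases of any kind, GAAA, in 3.44% of promoters) and a C/EBP motif (TTNNGCAAT, 2.18%) were matched in none of the 5. A match describes letters only and is not a measured binding site.

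Copies this similar share stretches of identical sequence. Of all windows of 50 bases in the transcripts of a gene, 4.3% in Serpina3c, 6.9% in Serpina3n, 10.6% in Serpina3f, 14.0% in Serpina3k, 15.5% in Serpina3g, 15.9% in Serpina3i, 19.1% in Serpina3m and 21.9% in Serpina3h also occurred in another Serpina gene. How the authors' counting treated a read that fits several copies, or its strand, is not given in the sources used here. Serpina3h shared most with Serpina3i over windows of 50 bases (15.8%) and with Serpina3g over windows of 75 bases (7.7%). Values of Serpina3h beside Serpina3i and the far more abundant Serpina3g, and of Serpina3m beside Serpina3k, are therefore uncertain. In GENCODE vM21 a transcript of Serpina3m begins at the first exon of Serpina3k, so the gene models overlap.

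Library size, in units of 1e6 gene counts, was 25.4 to 31.73, and between 12632 and 14848 genes had a count. The cell types carried their defining markers. Lrat, the retinol esterifying enzyme of stellate cells, was at 2534 to 3443 CPM in HSC WT and 0.566 to 1.61 CPM in LSEC WT libraries, and Stab2, the hyaluronan scavenger receptor of LSECs, at 3744 to 5027 CPM in LSEC WT and 1.79 to 6.22 CPM in HSC WT libraries. LSEC 36 h replicate 4 stood apart with 19.6 CPM of Lrat. Hepatocyte libraries fell into 5 with more than 100 CPM of the nuclear RNA Malat1 and 7 with less, in all 3 conditions. HSC and LSEC libraries of the same condition and number deviated together from their group means, with correlations of 0.164 to 0.567. In bulk RNA, fewer cells of a type and less RNA per cell cannot be told apart. Levels are in CPM (gene counts scaled to a common library total) on library sizes scaled over all 36 libraries, and levels of different genes are compared only as CPM per kilobase of exon.

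The 8 genes divided by cell type. In WT hepatocytes Serpina3k stood at 6200 ± 1785 CPM per kb (SD, n = 4), Serpina3m at 428 ± 53.4 and Serpina3n at 151 ± 55.7, and each of the other 5 at 0.116 or less. In WT LSECs the order by length was Serpina3g (152 ± 21.2 CPM per kb), Serpina3f (57.7 ± 11.4), Serpina3h (5.73 ± 0.794), Serpina3k (5.64 ± 2.49) and Serpina3i (3.42 ± 0.462). In WT HSCs Serpina3g (19.6 ± 2.45 CPM per kb) and Serpina3k (16.9 ± 3.97) were highest, with Serpina3f at 8.60 ± 1.82. The share of Serpina3g in the summed CPM per kb of the 8 genes was 41.0% ± 3.10 in WT HSCs and 67.4% ± 1.22 in WT LSECs, and Serpina3k held 90.8% ± 3.55 in WT hepatocytes (SD, n = 4 each).

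**Figure D1:**
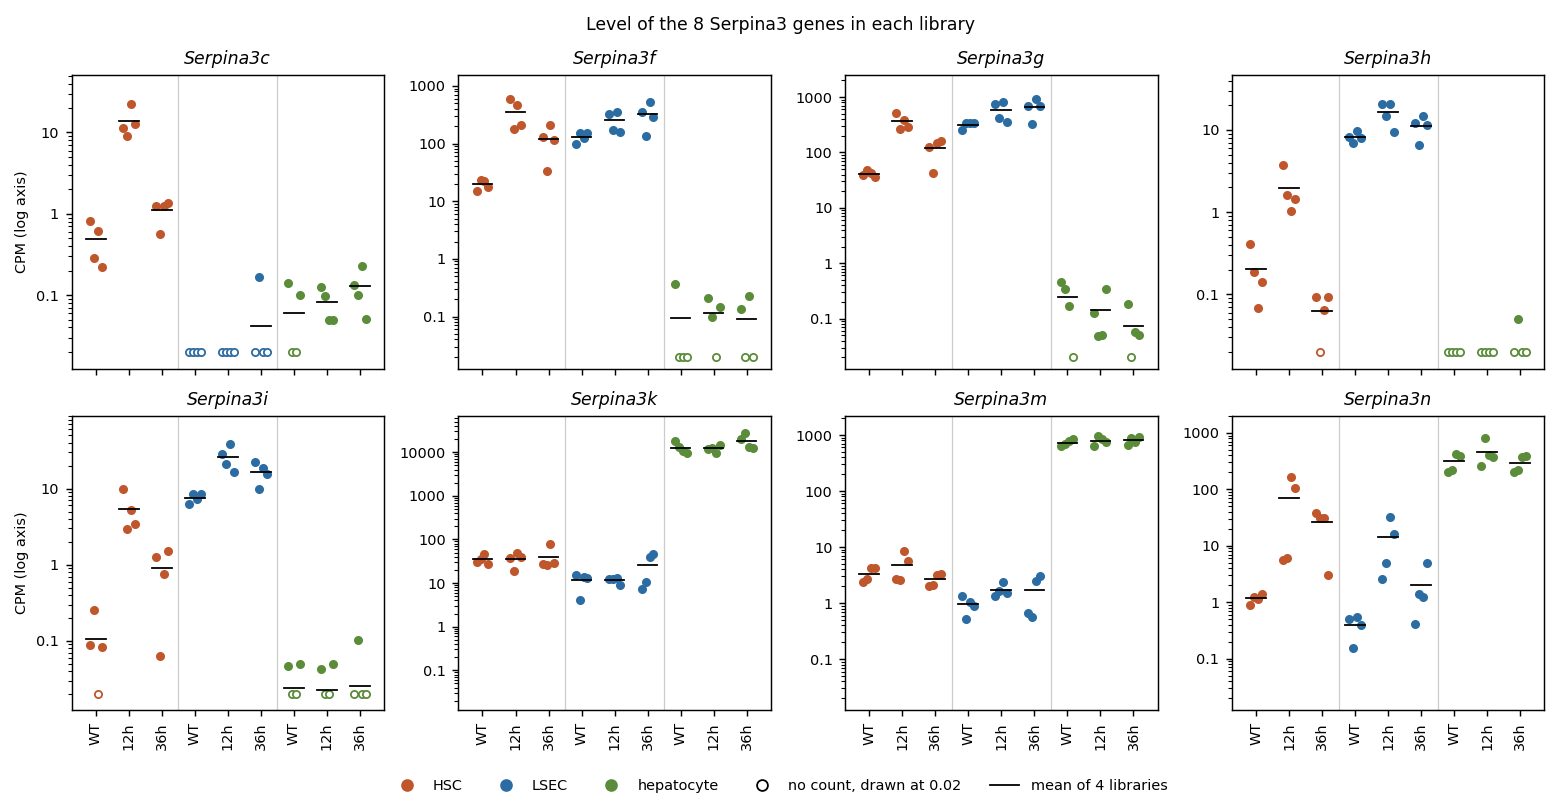
Level of each Serpina3 gene in the 36 libraries, in CPM on a log axis, by cell type and condition, with the mean of 4 libraries as a line and libraries with no count as open circles at the foot. Serpina3f, Serpina3g, Serpina3h and Serpina3i are seen in LSECs and HSCs and near 0 in hepatocytes, Serpina3k, Serpina3m and Serpina3n are highest in hepatocytes, and Serpina3c is seen in HSCs, where all 4 libraries at 12 h (9.17 to 22.7 CPM) lie above the others.

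Serpina3f was highest in HSCs at 12 h (360 ± 198 CPM, SD, n = 4), LSECs at 36 h (323 ± 158) and LSECs at 12 h (251 ± 99.8), 3 groups whose libraries overlapped. LSEC WT (132 ± 26.2 CPM) and HSC 36 h (122 ± 72.0) followed and overlapped each other, and HSC WT (19.7 ± 4.18) stood below without overlap. For Serpina3g the 3 LSEC groups (319 to 663 CPM as means) and HSC 12 h (365 ± 117) overlapped in turn, with HSC 36 h (119 ± 53.3) and HSC WT (41.2 ± 5.15) below them and overlapping each other. Serpina3h and Serpina3i were highest in LSECs at 12 h, at 16.5 ± 5.40 and 26.3 ± 9.83 CPM. For Serpina3k, Serpina3m and Serpina3n the 3 hepatocyte groups came first, overlapped one another and did not overlap any HSC or LSEC group. Serpina3c was highest in HSCs at 12 h (14.0 ± 5.96 CPM), with no overlap with HSC 36 h (1.10 ± 0.363).

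In HSCs 12 h after Kupffer cell depletion, 6 of the 8 genes rose against WT and none fell (edgeR quasi-likelihood test, adjusted p under 0.05). Of all 12676 genes tested, 32% were called in this comparison, 17% as higher and 15.1% as lower. Their sum went from 101 ± 16 CPM in WT to 856 ± 334 CPM at 12 h (SD, n = 4 each). The libraries of the 6 that rose did not overlap between the conditions, and those of Serpina3k and Serpina3m did. Serpina3h and Serpina3i, with 27 and 14 counts in the WT group, passed the filter on low counts through the 12 h libraries alone. A call of these genes as lower was thus hardly possible. With no filter 6 genes were called too.

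Serpina3g, the intracellular cathepsin inhibitor, stood at 38.7, 47.4, 42.9 and 35.6 CPM in HSC WT replicates 1 to 4 and at 522, 266, 383 and 287 CPM at 12 h. Every library at 12 h was above every WT library, and replicate 1 was highest. The change was 3.17 ± 0.35 on the log2 scale (SE; edgeR adjusted p = 6.25e-05), a fold of 9.0. Serpina3f, its neighbour, was at 15.1, 23.7, 22.7 and 17.3 CPM in WT and at 588, 176, 459 and 214 CPM at 12 h. Replicates 1 and 3 were well above replicates 2 and 4 for this gene, and the groups did not overlap. Serpina3f rose by 4.22 ± 0.52 on the log2 scale (SE; edgeR adjusted p = 0.000111).

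Serpina3i and Serpina3h, the pair with the most similar loops, were close to absent from WT HSCs. Serpina3i was at 0.0879, 0.252, 0 and 0.0837 CPM in WT, 14 counts in the group, and at 9.76, 2.99, 5.27 and 3.41 CPM at 12 h. All 4 libraries at 12 h were above WT, and replicate 1 was again highest. The rise was 5.62 ± 0.82 (log2, SE; edgeR adjusted p = 0.000298). The pseudogene Serpina3h went from 0.410, 0.189, 0.0682 and 0.140 CPM to 3.77, 1.63, 1.03 and 1.45 CPM, without overlap. It rose by 3.27 ± 0.60 (log2, SE; edgeR adjusted p = 0.00142).

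Serpina3c, the gene on the opposite strand, had 63 counts in the WT HSC group, at 0.820, 0.283, 0.614 and 0.223 CPM. At 12 h it was at 11.5, 9.17, 22.7 and 12.7 CPM, above WT in every library. The rise of 4.86 ± 0.42 (log2, SE; edgeR adjusted p = 1.53e-05) had the smallest adjusted p of the 8 genes.

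Serpina3n, the secreted granzyme B inhibitor, rose in all 4 HSC libraries at 12 h but by unequal amounts. It stood at 0.908, 1.23, 1.16 and 1.42 CPM in WT and at 5.59, 6.07, 164 and 105 CPM at 12 h. Replicates 3 and 4 were far above replicates 1 and 2, an order that Serpina3f and Serpina3g did not share. The change was 5.90 ± 1.12 (log2, SE; edgeR adjusted p = 0.00163).

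Serpina3k and Serpina3m were the 2 genes not called in HSCs at 12 h. Like Serpina3n, which was called, they were highest in hepatocytes. Serpina3k was at 29.9, 36.5, 45.5 and 27.2 CPM in WT and 36.7, 19.1, 48.3 and 40.5 CPM at 12 h, a difference of 0.08 ± 0.35 (log2, SE; edgeR adjusted p = 0.891). Serpina3m was at 3.36 ± 0.978 CPM in WT and 4.85 ± 2.80 CPM at 12 h (SD, n = 4), a difference of 0.54 ± 0.36 (log2, SE; edgeR adjusted p = 0.27). The libraries of both genes overlapped between the conditions.

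Markers of other cells were measured beside these changes. The summed level of 14 hepatocyte markers was 327 to 480.4 CPM in HSC WT and 331 to 577 CPM at 12 h, and that of 12 sinusoidal endothelial markers 119.5 to 208 and 116 to 167 CPM. A list of 12 monocyte and neutrophil genes went from 201 to 284 CPM to 443 to 951 CPM. Of these genes Plac8 was the single one with a mean of 1 CPM or more. S100a8, Ngp and Retnlg had no count in either condition, while Ccr2, S100a9, Camp and Chil3 had none in WT and some at 12 h. The platelet gene Pf4 rose from a mean of 11.4 to 52.8 CPM (2.24 ± 0.28, log2, SE, edgeR adjusted p = 0.000119). The 11 Kupffer cell markers went from 497 to 766 CPM to 119 to 432 CPM, with no count of Clec4f or Timd4 at 12 h. Slc40a1 made up most of that sum, at 585 ± 122 CPM in WT and 274 ± 136 CPM at 12 h (SD, n = 4). As means, Vsig4 went from 2.07 to 0.0161 CPM and Cd5l from 2.69 to 0.0406 CPM. Lymphocyte markers summed to at most 1.56 CPM. The part of these other cells in the Serpina3 changes was not tested.

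At 36 h the 8 genes summed to 313 ± 137 CPM in HSCs (SD, n = 4), and 0 of the 8 were called against WT by edgeR. Of the 8, 5 had an unadjusted p under 0.05 in edgeR and DESeq2 called 3, and over all 12676 genes these counts were 868 and 129. Of all genes, 0.142% were called by edgeR, 0.134% as higher and 0.00789% as lower, 18 of 12676 in all, and with replicate number as a block 10 were, again with 0 of the 8 genes. Serpina3f stood at 132, 32.9, 208 and 115 CPM, above every WT library, a difference of 2.63 ± 0.48 (log2, SE; edgeR adjusted p = 0.0566). Serpina3g was at 127, 42.0, 147 and 161 CPM, where replicate 2 lay within the WT range (1.53 ± 0.33, log2, SE; edgeR adjusted p = 0.143). Without that library the edgeR adjusted p was 0.00753 for Serpina3f and 0.0064 for Serpina3g, and 2 genes were called. Serpina3n was at 38.6, 31.6, 30.8 and 3.08 CPM, with replicate 4 far below the others and all 4 above WT (4.45 ± 1.07, log2, SE; edgeR adjusted p = 0.201). Serpina3f, Serpina3g and Serpina3n were the 3 that DESeq2 called. Serpina3i was at 3.02 ± 0.83 and Serpina3c at 1.18 ± 0.43 (log2, SE; edgeR adjusted p = 0.29 and 0.536), and their libraries overlapped WT. Serpina3h went the other way, from 27 counts in the WT group to 8, at -1.65 ± 0.77 (edgeR adjusted p = 0.735), as did Serpina3m at -0.34 ± 0.37 (0.95), while Serpina3k was at 0.22 ± 0.35 (0.966).

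Between 12 h and 36 h, 5 of the 8 genes fell in HSCs, where 27.9% of all genes were called, 15% as lower and 12.9% as higher. For Serpina3h and Serpina3i, which passed the filter on low counts through the 12 h libraries alone, a call as higher was hardly possible. With no filter 5 genes were called too. Serpina3h fell by 4.92 ± 0.70 (log2, SE; edgeR adjusted p = 0.000321), from 251 counts in the group to 8. Serpina3c fell by 3.68 ± 0.39 (edgeR adjusted p = 5.77e-05), to 1.26, 0.563, 1.23 and 1.36 CPM. Both ended without overlap with their 12 h libraries, as did Serpina3i (-2.60 ± 0.65, edgeR adjusted p = 0.00917) and Serpina3g (-1.64 ± 0.33, edgeR adjusted p = 0.00266). Serpina3f overlapped and differed by -1.59 ± 0.46 (log2, SE; edgeR adjusted p = 0.0206), a call lost without HSC 12 h replicate 1 (edgeR adjusted p = 0.0607) or replicate 3 (0.051). For Serpina3n the difference was -1.45 ± 0.88 (log2, SE; edgeR adjusted p = 0.241), with overlap. Serpina3m, at -0.89 ± 0.36 (edgeR adjusted p = 0.0848), was called without HSC 12 h replicate 1 (0.0397) or replicate 2 (0.0369), and Serpina3k was at 0.15 ± 0.35 (0.783).

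**Figure D2:**
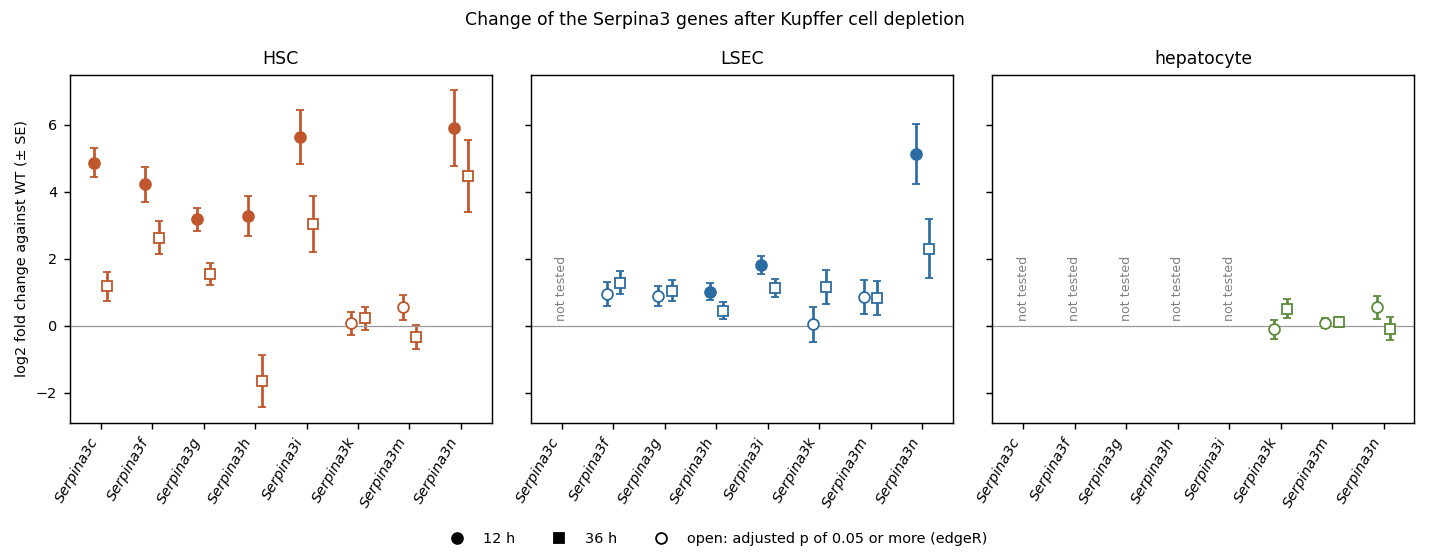
Log2 fold change against WT with its SE for each Serpina3 gene in HSCs, LSECs and hepatocytes, as circles at 12 h and squares at 36 h, filled where the edgeR adjusted p was under 0.05. The 6 filled circles in HSCs lie between 3.17 and 5.90, the 3 in LSECs between 1.02 and 5.13, and no square is filled.

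In LSECs at 12 h, 3 of the 7 genes tested rose against WT and none fell, where 18.2% of 12286 genes were called, 9.74% as higher and 8.5% as lower. Serpina3n had been close to absent, at 0.504, 0.152, 0.546 and 0.396 CPM in WT, and was at 2.56, 5.0, 32.9 and 15.97 CPM at 12 h. As in HSCs, replicates 3 and 4 were highest and the conditions did not overlap. The change was 5.13 ± 0.90 (log2, SE; edgeR adjusted p = 0.00209).

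Serpina3i was at 6.33, 8.47, 7.23 and 8.41 CPM in WT LSECs and 28.8, 20.9, 38.9 and 16.5 CPM at 12 h, without overlap. It rose by 1.80 ± 0.27 (log2, SE; edgeR adjusted p = 0.000934). Serpina3h went from 8.29, 6.98, 9.72 and 7.90 CPM to 20.7, 14.7, 20.9 and 9.58 CPM, where replicate 4 lay just under the highest WT library. It rose by 1.02 ± 0.26 (log2, SE; edgeR adjusted p = 0.0169), and without LSEC 12 h replicate 3 the adjusted p was 0.0549.

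Serpina3g and Serpina3f were abundant in WT LSECs already. Serpina3g was at 252, 341, 343 and 341 CPM in WT and 762, 415, 802 and 354 CPM at 12 h, all above WT but with replicates 2 and 4 close to it. The difference was 0.89 ± 0.31 (log2, SE; edgeR adjusted p = 0.0594), and the adjusted p was 0.0448 without LSEC 12 h replicate 2 and 0.031 without replicate 4. Serpina3f was at 97.5, 154, 126 and 151 CPM in WT and 324, 173, 350 and 157 CPM at 12 h (0.94 ± 0.35, log2, SE; edgeR adjusted p = 0.0768). In a fit of these 8 libraries alone both were called, at edgeR adjusted p = 0.0381 and 0.0349. Serpina3k (0.04 ± 0.51) and Serpina3m (0.87 ± 0.51) were not called (log2, SE; edgeR adjusted p = 0.97 and 0.259). Serpina3c had 0 counts in the WT and 12 h LSEC groups, which allows up to 0.0211 and 0.0214 CPM (3 counts over the group, covering counting error only), and 6 counts at 36 h, all in replicate 2.

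Markers of other cells in LSECs were measured at 12 h too. The 14 hepatocyte markers summed to 45.6 to 187 CPM in WT and 92.8 to 189 CPM at 12 h, and the 12 stellate cell markers to 261 to 370 and 284 to 366 CPM. The 11 Kupffer cell markers summed to 545 to 684 CPM in WT, with 9 at a mean of 1 CPM or more, and to 483 to 775 CPM at 12 h, with 4. Among them Vsig4 (-6.84 ± 0.91) and Cd5l (-6.79 ± 1.23) fell (log2, SE, edgeR adjusted p = 0.000453 and 0.0025). As means, Vsig4 went from 2.90 to 0.0222 CPM and Cd5l from 5.18 to 0.0437 CPM. Timd4 was at 0.724 CPM in WT and had no count at 12 h. These markers were a small part of the sum. The 12 monocyte and neutrophil genes went from 6.44 to 9.62 CPM to 9.996 to 35.8 CPM, where Plac8 rose (1.24 ± 0.38, edgeR adjusted p = 0.0377), and the platelet gene Pf4 rose (2.02 ± 0.40, edgeR adjusted p = 0.00433). Lymphocyte markers summed to at most 7.16 CPM. The part of these other cells in the LSEC values was not tested.

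At 36 h, 0 of the 7 genes tested in LSECs were called against WT by edgeR, as were 0% of all genes. Of the 7, 5 had an unadjusted p under 0.05 and DESeq2 called 2, Serpina3g and Serpina3i, and over all genes these counts were 1288 and 112. Serpina3g was at 699, 323, 934 and 696 CPM, with replicate 2 within the WT range (1.05 ± 0.31, log2, SE; edgeR adjusted p = 0.318). Serpina3f was at 347, 134, 519 and 294 CPM, where replicate 2 was again the one within the WT range (1.28 ± 0.35, edgeR adjusted p = 0.308). Serpina3i was at 22.3, 9.85, 18.8 and 15.4 CPM, above every WT library (1.12 ± 0.27, edgeR adjusted p = 0.295). Serpina3n (2.30 ± 0.87), Serpina3k (1.15 ± 0.51), Serpina3m (0.83 ± 0.51) and Serpina3h (0.45 ± 0.26) overlapped WT (log2, SE; edgeR adjusted p = 0.384, 0.457, 0.594 and 0.579).

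From 12 h to 36 h in LSECs, 1 of the 7 genes tested fell, and 21.3% of all genes were called, 10.8% as lower and 10.6% as higher. Serpina3n was at 0.405, 1.40, 1.25 and 5.01 CPM at 36 h and differed from 12 h by -2.83 ± 0.77 (log2, SE; edgeR adjusted p = 0.0193), with overlap. The call was lost without LSEC 12 h replicate 3 (edgeR adjusted p = 0.074), LSEC 36 h replicate 2 (0.0526) or LSEC 36 h replicate 3 (0.0596). Without LSEC 12 h replicate 4, Serpina3h (-0.76, edgeR adjusted p = 0.0426) and Serpina3i (-0.86, 0.0362) were also called. Serpina3g and Serpina3f differed by 0.16 ± 0.30 and 0.34 ± 0.35 (log2, SE; edgeR adjusted p = 0.748 and 0.525). With all libraries Serpina3h was at -0.57 ± 0.26, Serpina3i at -0.69 ± 0.26, Serpina3k at 1.11 ± 0.51 and Serpina3m at -0.03 ± 0.50 (edgeR adjusted p = 0.139, 0.0803, 0.141 and 0.971).

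LSEC Serpina3k at 36 h moved with hepatocyte RNA. It was at 7.50, 10.5, 39.7 and 46.1 CPM in replicates 1 to 4, where the 14 hepatocyte markers summed to 66.8, 83.9, 284 and 477 CPM. The same 2 libraries were high in both, and the part of hepatocyte RNA in the Serpina3k value was not tested.

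In hepatocytes 3 of the 8 genes passed the filter on low counts, and 0 of them were called by edgeR at 12 h or 36 h against WT or between these times. None had an unadjusted p under 0.05, and DESeq2 called 0 of the 3. Over all 11326 genes edgeR called 0% in each of the 3 comparisons, with 453, 564 and 725 genes at an unadjusted p under 0.05 and 45, 60 and 24 called by DESeq2. With replicate number as a block, which joined WT and 36 h libraries by number only, 5 genes were called between these conditions, none of them a Serpina3 gene.

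Serpina3k, the major plasma serpin among them, stood at 17702, 13321, 10456 and 9533 CPM in WT hepatocytes, 11706, 12483, 9644 and 15048 CPM at 12 h and 19895, 27802, 12962 and 12746 CPM at 36 h. The 3 conditions overlapped. The differences from WT were -0.10 ± 0.28 at 12 h and 0.51 ± 0.28 at 36 h (log2, SE; edgeR adjusted p = 0.999 and 0.99997). Serpina3n was at 204, 224, 430 and 391 CPM in WT, 256, 824, 402 and 379 CPM at 12 h and 207, 221, 369 and 394 CPM at 36 h, with replicate 2 at 12 h alone above the rest. It differed by 0.55 ± 0.35 at 12 h and -0.09 ± 0.35 at 36 h (log2, SE; edgeR adjusted p = 0.999 and 0.99997). Serpina3m held 735 ± 91.7, 798 ± 131 and 804 ± 112 CPM (SD, n = 4) and differed by 0.09 ± 0.15 and 0.11 ± 0.15. From 12 h to 36 h the differences were 0.61 ± 0.28 for Serpina3k, 0.02 ± 0.15 for Serpina3m and -0.63 ± 0.35 for Serpina3n (edgeR adjusted p = 0.767, 0.968 and 0.767). The 5 other genes had between 0 and 20 counts in a hepatocyte group and were not tested.

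Some hepatocyte values of these genes split with Malat1. Serpina3n was at 204 to 256 CPM in the 5 libraries above 100 CPM of Malat1 and at 369 to 824 CPM in the 7 below, without overlap across all 3 conditions. For Serpina3k the order was the other way in WT, with a mean of 15511 CPM above and 9994 CPM below, and at 36 h, with 23849 and 12854 CPM, but not at 12 h, with 11706 CPM in 1 library and 12392 CPM in 3. Serpina3m ranged from 635 to 876 CPM above and from 749 to 953 CPM below. Within the 7 libraries below, Serpina3n was at 391 and 430.0 CPM in WT, 379, 402 and 824 CPM at 12 h and 369 and 394 CPM at 36 h. A term for this split left all 3 genes uncalled.

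**Figure D3:**
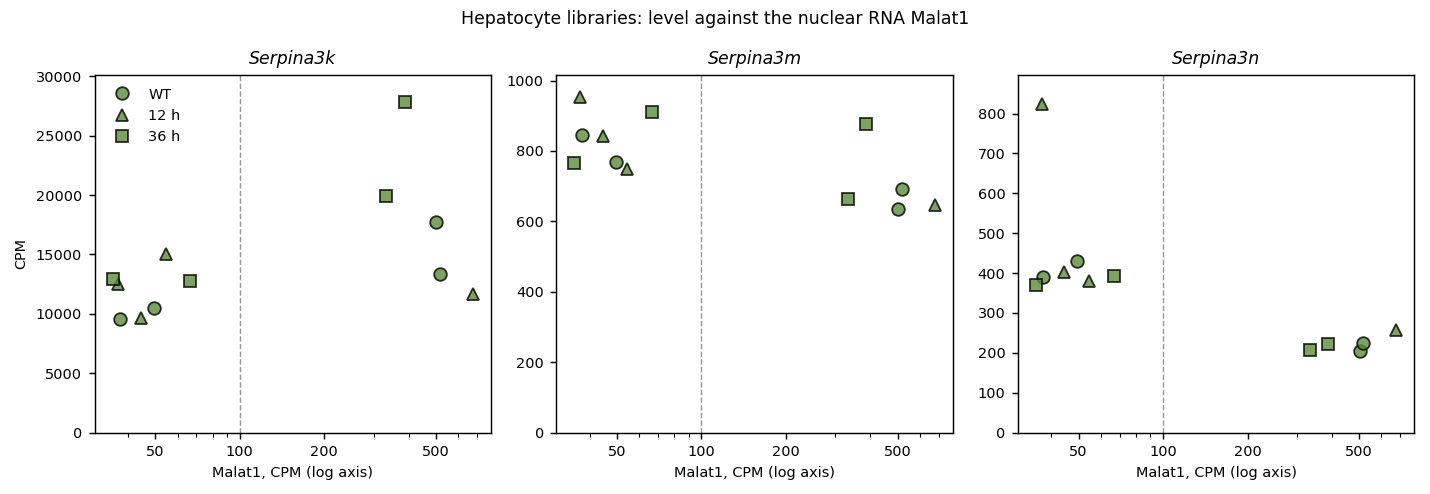
Serpina3k, Serpina3m and Serpina3n in the 12 hepatocyte libraries (CPM, linear axis from 0) against Malat1 (CPM, log axis), with the condition as the symbol and a dashed line at 100 CPM of Malat1. Serpina3n lies at 204 to 256 CPM to the right of the line and at 369 to 824 CPM to the left.

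Between HSCs and LSECs, 7 of the 8 genes differed in WT, where 54.3% of 14104 genes did, 28.8% as higher and 25.5% as lower in HSCs. LSECs had more of the run from Serpina3f to Serpina3i. The difference of HSCs from LSECs was -2.75 ± 0.47 in Serpina3f (log2, SE; edgeR adjusted p = 8.52e-06), -2.96 ± 0.39 in Serpina3g, -5.30 ± 0.47 in Serpina3h and -6.10 ± 0.61 in Serpina3i (edgeR adjusted p = 6.96e-08, 2.21e-10 and 2.59e-10). Serpina3k was higher in HSCs by 1.58 ± 0.46 and Serpina3m by 1.82 ± 0.40 (log2, SE; edgeR adjusted p = 0.00438 and 0.000263). Alb, the albumin gene of hepatocytes, was at 165 ± 35.0 CPM in WT HSCs and 58.9 ± 29.8 CPM in WT LSECs (SD, n = 4 each), and the part of hepatocyte RNA in these 2 differences was not tested. Serpina3c was at least 23.0-fold higher in HSCs, counted against a floor of 3 counts over the LSEC group. For Serpina3n the difference was 1.54 ± 1.05 (log2, SE; edgeR adjusted p = 0.224), although every HSC library was above every LSEC library, and in a fit of these 8 libraries alone the adjusted p was 0.00501.

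At 12 h, 6 of the 8 genes differed between HSCs and LSECs, and 53.5% of all genes did, 29.6% as higher and 23.9% as lower in HSCs. Serpina3f (0.52 ± 0.44) and Serpina3g (-0.68 ± 0.36) were the 2 not called (log2, SE; edgeR adjusted p = 0.339 and 0.114), and their libraries overlapped. With HSC and LSEC libraries of the same number as a block, in a fit without hepatocytes, Serpina3f was at 0.38 (adjusted p = 0.0343) and Serpina3g at -0.69 (0.00088), both called by edgeR. Under that block Serpina3n, higher in HSCs by 2.31 ± 0.80 (log2, SE; edgeR adjusted p = 0.0154), was at 1.66 and lost its call (0.0557), so that 7 were called. Of all 13456 genes tested under the block, 8782 were called. In the fit without a block Serpina3n also lost its call without HSC 12 h replicate 3 (edgeR adjusted p = 0.129), LSEC 12 h replicate 1 (0.0533) or LSEC 12 h replicate 2 (0.0529). Serpina3h (-3.06 ± 0.39) and Serpina3i (-2.29 ± 0.43) were still lower in HSCs, and Serpina3k (1.62 ± 0.46) and Serpina3m (1.5 ± 0.38) higher. Serpina3c was at least 655-fold higher in HSCs.

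At 36 h, 6 of 8 genes differed between the 2 cell types, where 52.8% of all genes did, 27.4% as higher and 25.4% as lower in HSCs. Serpina3f (-1.41 ± 0.45), Serpina3g (-2.48 ± 0.38), Serpina3h (-7.40 ± 0.55) and Serpina3i (-4.21 ± 0.49) were lower in HSCs, and Serpina3c (4.58 ± 0.71) and Serpina3n (3.70 ± 0.88) higher (log2, SE; edgeR adjusted p of 0.00886 or less). The LSEC value of Serpina3c rests on the 6 counts of replicate 2, and without that library the fitted difference, then against 0 counts, was 8.01. The call of Serpina3f was lost without LSEC 36 h replicate 3 (edgeR adjusted p = 0.0526). Serpina3k and Serpina3m, at 0.65 each, were not called, and under the block of HSC and LSEC libraries Serpina3m was, at 0.85 (edgeR adjusted p = 0.0444), which gave 7. Of all 13456 genes tested under the block, 8748 were called. Serpina3m was also called without LSEC 36 h replicate 4 (edgeR adjusted p = 0.0274).

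Against hepatocytes nearly all genes of the cluster differed, as did most genes tested. Serpina3f, Serpina3g, Serpina3h and Serpina3i had 0 to 20 counts in a hepatocyte group and passed the filter through HSC and LSEC libraries. A call of these genes as lower than in hepatocytes was thus hardly possible, and their folds and p-values rest on very few hepatocyte counts. In WT, 7 of 8 differed in HSCs and 8 of 8 in LSECs, where 76.9% (42.8% higher, 34.1% lower) and 76.6% (41.6% higher, 35% lower) of all genes did. At 12 h the counts were 8 and 8, beside 75.6% (42.7% and 32.9%) and 76.5% (41.4% and 35%) of all genes. At 36 h they were 7 and 7, beside 77.2% (42.9% and 34.4%) and 78% (42.8% and 35.2%). The 8 in WT LSECs include Serpina3c, with 5 counts in hepatocytes and 0 in LSECs, which passed the filter through HSC libraries alone. Its call was lost without scaling factors (edgeR adjusted p = 0.0617), without hepatocyte WT replicate 1 (0.114) or without replicate 4 (0.0628), so that 7 were left. The difference of Serpina3k from hepatocytes was -8.52 ± 0.62 in WT HSCs and -10.1 ± 0.67 in WT LSECs (log2, SE; edgeR adjusted p = 5.91e-14 and 3.45e-15). Serpina3g was higher by 7.35 ± 0.54 in WT HSCs and 10.3 ± 0.58 in WT LSECs (log2, SE; edgeR adjusted p = 6.94e-14 and 7.11e-17). Serpina3f was higher by 7.57 ± 0.76 and 10.3 ± 0.77 and Serpina3m differed by -7.77 ± 0.47 and -9.59 ± 0.51 in WT HSCs and LSECs (log2, SE; edgeR adjusted p of 1.09e-10 or less). Serpina3i had 2 counts in each hepatocyte group. Serpina3h had no count in hepatocytes in WT or at 12 h and was at least 219-fold and 462-fold higher in LSECs. The gap of Serpina3n to hepatocytes was -8.04 ± 1.06 in WT HSCs, -2.73 ± 0.81 at 12 h and -3.52 ± 0.84 at 36 h (log2, SE; edgeR adjusted p = 3.64e-08, 0.0031 and 0.000355).

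The 12 h response itself differed between HSCs and LSECs for 4 of the 8 genes, where 1.62% of all genes did, 0.822% as higher and 0.801% as lower in HSCs. It was larger in HSCs by 3.81 ± 0.76 for Serpina3i (log2, SE; edgeR adjusted p = 0.00372), 3.26 ± 0.64 for Serpina3f (0.00342), 2.28 ± 0.51 for Serpina3g (0.0129) and 2.24 ± 0.59 for Serpina3h (0.0498). The calls of Serpina3f, Serpina3g and Serpina3i held in all 16 fits that left out 1 library. That of Serpina3h was lost in 13 of the 16, at edgeR adjusted p up to 0.126. For Serpina3n the difference between the responses was 0.77 ± 1.34 (log2, SE; edgeR adjusted p = 0.927), and for Serpina3k and Serpina3m it was 0.03 ± 0.64 and -0.32 ± 0.55. Serpina3c could not be fitted here, since LSECs had no count in either group. The call of Serpina3h was also lost with RLE scaling (edgeR adjusted p = 0.0539), no scaling (0.05005), no filter on low counts (0.0551) and only the groups compared (0.0518). Each of these left 3 genes called. With the block of HSC and LSEC libraries the same number of Serpina3 genes, 4, was called, while all genes called went from 229 to 797.

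Against hepatocytes, the 12 h response was larger in HSCs for Serpina3n (5.31 ± 1.19, log2, SE; edgeR adjusted p = 0.00521), a call that held in all 16 fits without 1 library. Of all genes, 9.2% were called in this comparison, 5.03% as higher and 4.17% as lower. Serpina3k (0.12 ± 0.64) and Serpina3m (0.41 ± 0.51), the other 2 genes that passed the filter in hepatocytes, were not called (edgeR adjusted p = 0.995 and 0.695). The fit also called Serpina3g (3.93 ± 0.92, edgeR adjusted p = 0.00717) and Serpina3c (4.46 ± 1.39, 0.0429), 3 of 8 in all. These 2 genes had 20 and 12 counts, and 5 and 7 counts, in the WT and 12 h hepatocyte groups and did not pass the filter there, so their hepatocyte response was not measurable at this depth. Serpina3g lost its call without hepatocyte WT replicate 1 (0.0602), and Serpina3c lost it in 9 of the 16 fits, at up to 0.289. The LSEC response was larger than that of hepatocytes for 1 of the 8, Serpina3n (4.54 ± 1.25, log2, SE; edgeR adjusted p = 0.0388), with 3.57% of all genes called (1.97% higher, 1.6% lower), and that call was lost in 12 of 16 such fits, at up to 0.116.

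For the 36 h response, 0 of the 8 genes differed between any 2 cell types by edgeR, where 0%, 0.00709% and 0.00709% of all genes did. In HSCs against LSECs 4 of the 8 had an unadjusted p under 0.05 and DESeq2 called 0. They went both ways, with Serpina3f at 1.34 ± 0.63 and Serpina3i at 1.89 ± 0.80 as the larger in HSCs and Serpina3h at -2.10 ± 0.80 and Serpina3m at -1.18 ± 0.56 as the smaller (log2, SE). In HSCs against hepatocytes these counts were 2 and 2 (Serpina3n and, at 20 and 6 counts in hepatocytes, Serpina3g by DESeq2), and in LSECs against hepatocytes 1 and 0. Over all 14104 genes they were 567 and 7 in HSCs against LSECs and 937 and 65 in HSCs against hepatocytes. In LSECs against hepatocytes they were 973 and 81 over all genes.

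Serpina3k, Serpina3m and Serpina3n in HSCs and LSECs were also set against albumin (Alb), whose RNA hepatocytes make, by counts per 1000 counts of Alb in the same library. In WT, Serpina3k was at 167 to 261 in HSCs, 161 to 233 in LSECs and 171 to 482 in hepatocytes. Serpina3n was at 5.39 to 8.76, 6.27 to 8.36 and 5.55 to 7.82, and Serpina3m at 16.7 to 26.1, 12.2 to 28.4 and 14.0 to 18.5. In WT the ratios of these 3 genes to Alb thus overlapped in all 3 cell types. At 12 h Serpina3n left that range, at 34.8, 45.3, 807 and 815 in HSCs and 47.1, 71.5, 602 and 483 in LSECs, against 6.44 to 15.1 in hepatocytes. Serpina3m was at 16.6, 19.4, 41.7 and 44.0 in HSCs and 24.3, 23.3, 42.9 and 46.5 in LSECs at 12 h, against 12.7 to 21.2 in hepatocytes, highest in the libraries where Serpina3n was highest. At 36 h Serpina3n was at 459, 340.0, 208 and 27.3 in HSCs, 17.2, 49.2, 11.9 and 31.3 in LSECs and 4.64 to 7.18 in hepatocytes. Serpina3k lay within the range of hepatocyte libraries (156 to 584) in every HSC and LSEC library but 1, HSC 12 h replicate 2 (142).

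**Figure D4:**
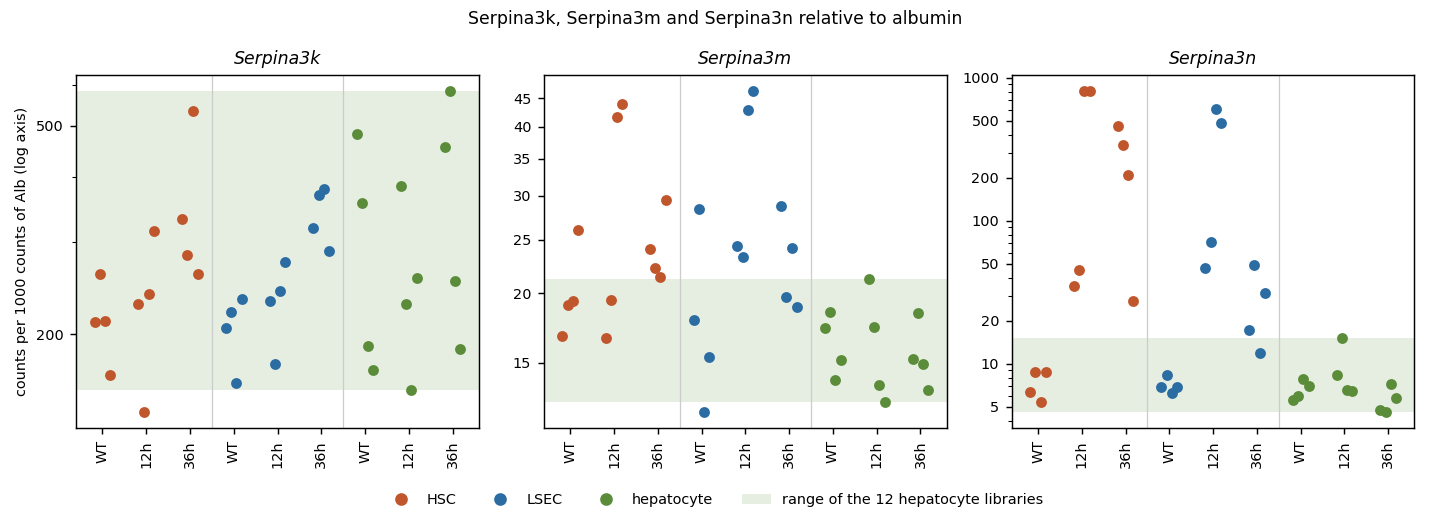
Counts of Serpina3k, Serpina3m and Serpina3n per 1000 counts of Alb in each library (log axis) by cell type and condition, with the range of the 12 hepatocyte libraries shaded. Serpina3n lies at 5.39 to 8.76 in WT HSCs and LSECs, within the shade, and at 27.3 to 815 in HSCs after depletion, above it.

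Several of the genes had the same high or low replicate numbers in HSCs and LSECs. At 12 h replicates 1 and 3 were the highest of their group for Serpina3f, Serpina3g and Serpina3i in both cell types. Serpina3n was highest in replicates 3 and 4 in both. At 36 h replicate 2 was lowest for Serpina3f, Serpina3g and Serpina3i in both. Serpina3n at 36 h did not share its order, with replicate 4 lowest in HSCs (3.08 CPM) and highest in LSECs (5.01 CPM). Whether such libraries come from the same animals is not stated in the labels.

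**Figure D5:**
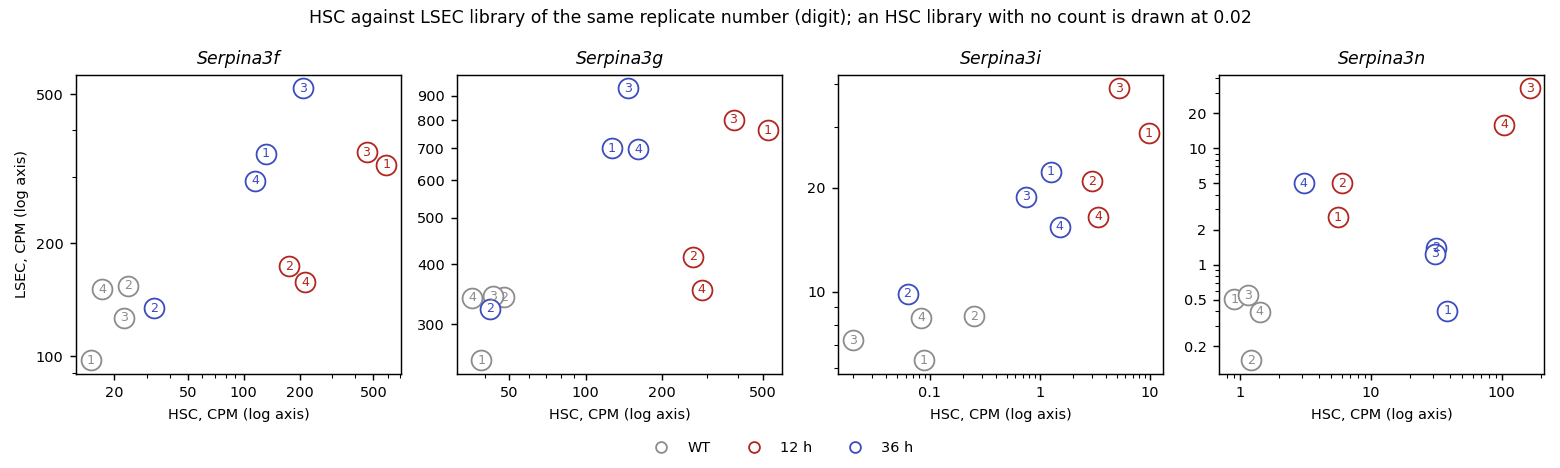
Level of Serpina3f, Serpina3g, Serpina3i and Serpina3n in each HSC library against the LSEC library of the same condition and replicate number, in CPM on log axes, with the digit as the number and the colour as the condition. At 12 h Serpina3f is highest in numbers 1 and 3 on both axes and Serpina3n in numbers 3 and 4.

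Pairs of genes were compared across libraries by Pearson correlation of log2(CPM + 0.5), a description over libraries that share condition and depth. Serpina3f and Serpina3g had r = 0.976 over 12 HSC and 0.987 over 12 LSEC libraries, and Serpina3g and Serpina3i had 0.98 and 0.822. Serpina3n and Serpina3f had 0.667 and 0.302. Serpina3k and Serpina3m had 0.439 in HSCs and 0.806 in LSECs, and Serpina3k and Serpina3f 0.275 and 0.421. Serpina3f, Serpina3g and Serpina3i thus followed each other more closely than any of them followed Serpina3n or Serpina3k in these libraries. This was not particular to them. With these genes, in the same order, Serpina3c had 0.85, 0.911 and 0.919 in HSCs, and it was almost without counts in LSECs. Serpina3h had 0.656, 0.767 and 0.84 with them in HSCs and 0.751, 0.812 and 0.885 in LSECs, where Serpina3f and Serpina3i had 0.795.

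The genes most like each member were sought among 11057 genes over all 36 libraries. For Serpina3f the nearest was Serpina3g (r = 0.992) and for Serpina3g it was Casp4 (0.994), the inflammatory caspase for intracellular lipopolysaccharide, followed by Serpina3f and Cxcl16 (0.989). Serpina3k was nearest to Apoa1 (0.997), the main apolipoprotein of HDL, and Serpina3m to Ahcy and Crp (0.997 each). Serpina3n was nearest to Ninj1 (0.933) and the acute phase protein haptoglobin, Hp (0.929). Serpina3c was nearest to Vcan (0.966), a matrix proteoglycan, and Serpina3h to Galnt18 (0.968), a glycosyltransferase. Within single cell types, over 12 libraries each, Serpina3f in HSCs was nearest to Slamf8 (0.976), with the guanylate-binding protein gene Gbp5 at 0.971. Serpina3g in LSECs was followed after Serpina3f by the peptide transporter gene Tap1 (0.914), and Serpina3n in hepatocytes by Sod2 (0.977), the mitochondrial superoxide dismutase.

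Other serpins were set beside the cluster in HSCs at 12 h, as a description. The median log2 fold change was 3.74 over the 8 Serpina3 genes, 0.20 over 9 other clade A serpins tested, -0.22 over 12 serpins of other clades and 0.01 over all 12676 genes. Of the other clade A serpins 1 rose, Serpina11 (2.27 ± 0.64, log2, SE; edgeR adjusted p = 0.0163), and of the other clades Serpinb6b fell (-0.92 ± 0.30, edgeR adjusted p = 0.0305). In LSECs at 12 h, with a median of 0.94 over 7 Serpina3 genes, 2 of 9 other clade A serpins rose. They were Serpina3b (1.88 ± 0.26, edgeR adjusted p = 0.000541), a further copy of the family, from 1.20 to 4.35 CPM, and Serpina5, which had no count in WT and 0.876 ± 0.975 CPM (SD, n = 4) at 12 h.

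Genes of the pathways known to drive the family were counted from lists, beside 17% of all genes higher and 15.1% lower in HSCs at 12 h. In HSCs at 12 h, 11 of 18 tested genes of IL-6 and STAT3 signalling rose and none fell (median log2 fold change 0.82), among them Osmr (1.80 ± 0.20), the oncostatin M receptor, and the cytokine gene Lif (5.33 ± 0.75). Of 17 NF-kB factors and targets 17 rose (median 1.59), with Nfkb2 at 2.23 ± 0.22 and Sod2 at 2.52 ± 0.21. Of 23 interferon-gamma response genes 18 rose (median 1.09), with the GTPase genes Gbp2 at 3.30 ± 0.25 and Gbp5 at 2.29 ± 0.26. Of 12 glucocorticoid receptor genes and targets 3 rose and 5 fell (median -0.22). Those that rose were Mt2 (4.48 ± 0.26), a metallothionein gene that other signals also raise, Mt1 (3.22 ± 0.25) and Fkbp5 (1.22 ± 0.23). Hsd11b1 (-1.14 ± 0.17), which regenerates active glucocorticoid, was among those that fell. Of 23 other acute phase genes 19 rose (median 1.68), such as Lcn2 (9.16 ± 1.16), Cp (1.33 ± 0.15) and Cfb (1.68 ± 0.20). Apart from Fkbp5 (edgeR adjusted p = 0.00145), all genes named here had an edgeR adjusted p of 0.000305 or less.

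In LSECs at 12 h, 9.74% of all genes were higher and 8.5% lower. Of 18 IL-6 and STAT3 signalling genes 2 rose and 1, Osmr (-0.59 ± 0.17, log2, SE; edgeR adjusted p = 0.0243), fell. Of 17 NF-kB genes 7 rose, of 24 interferon-gamma genes 5, and of 23 acute phase genes 10, with medians of 0.51, 0.76 and 1.74 against -0.02 over all genes. Irf8 (1.34 ± 0.13, edgeR adjusted p = 0.000188) and Lrg1 (2.75 ± 0.46, edgeR adjusted p = 0.00154) were among them. Of 11 glucocorticoid receptor genes and targets 3 rose and 2 fell (median 0.40). Fkbp5 (0.50 ± 0.13) was among those that rose and Tsc22d3 (-1.05 ± 0.16) among those that fell (log2, SE, edgeR adjusted p = 0.0204 and 0.00099). Differences between the cell types in these lists were not tested. In HSCs at 36 h, where 0.134% of all genes were higher than in WT, 5 of 23 acute phase genes were, among them Cp (1.48 ± 0.15, edgeR adjusted p = 0.00172), Cfb (1.76 ± 0.20, edgeR adjusted p = 0.00261) and Lcn2 (7.55 ± 1.15, edgeR adjusted p = 0.0246), where 0 of the 8 Serpina3 genes were called.

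Proteases that serpins of this family can meet were counted too. Of 10 tested in HSCs at 12 h, 4 fell and 1 rose (median log2 fold change -0.36), where 32% of all genes were called. The lysosomal cathepsin genes Ctsl (-0.67 ± 0.15, edgeR adjusted p = 0.00389) and Ctsk (-0.56 ± 0.10, edgeR adjusted p = 0.00131) fell, and Ctsc (0.90 ± 0.25, edgeR adjusted p = 0.0141), which activates granule proteases, rose. In LSECs Ctsb (0.84 ± 0.11, edgeR adjusted p = 0.000541) and Ctsh rose and Ctsk fell, 3 of 10 tested, where 18.2% of all genes were called.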

How the data were processed

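The authors deposited whole-number read counts per gene symbol, 1 file per library. Per the submitters' processing notes, reads were checked with FastQC 0.11.4, trimmed with Trimmomatic 0.35, mapped to mm10 with TopHat2 2.1.0 and handled with SAMtools 0.1.18. For the counting tool, its strand setting and its annotation: not given in the sources used here. Reads in no gene (4.9 to 9.02%) and ambiguous reads (0.89 to 1.51%) were left out of library sizes. No pair of libraries was identical (0 pairs).

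Counts were tested with edgeR 4.0.16 in R 4.3.3 (glmQLFit, glmQLFTest, TMM scaling, filterByExpr with minimum count 10 and minimum total 15), with Benjamini-Hochberg adjustment over all genes tested and a threshold of 0.05. Responses used the 12 libraries of a cell type, and comparisons between cell types and between responses used all 36 libraries in 9 groups. Each SE was taken from the fold and its F statistic (size of the log2 fold over root F). A floor of 3 counts over a group gives bounds. This floor covers counting error only, while the SDs and SEs also hold the spread between libraries. The test was checked on simulated data. Loops and lengths come from GENCODE vM21 transcripts and promoters from RefSeq.

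The rule for named genes takes all 8 members in each comparison, a member at a few counts in hepatocytes being given by its level, then up to 4 called genes of each list by smallest adjusted p and the 3 genes most like a member among those reaching a mean of 5 CPM somewhere. Members and lists were chosen with earlier results of these data known. Same-numbered HSC and LSEC libraries were treated as pairs because every correlation of their deviations passed 0.1 in WT (lowest 0.164), at 12 h (0.251) and at 36 h (0.18). In WT, 2 of the 4 HSC libraries correlated best with the LSEC library of their own number. At 12 h and at 36 h all 4 did. WT and 36 h libraries of HSCs (lowest 0.127) and of hepatocytes (0.496) passed 0.1 too, but the labels do not link these conditions by animal. Of the 4 HSC WT libraries, 2 correlated best with their own number at 36 h. Hepatocyte replicates 1 and 2 were above 100 CPM of Malat1 in both conditions, so number and Malat1 split cannot be told apart there. Alternatives were RLE scaling, no scaling, no filter, DESeq2 1.42.0, only the groups compared, replicate blocks, a Malat1 term in hepatocytes and leaving out each library.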

Additional observations from a re-analysis of the deposited data

Results flagged for a closer look

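In 4 of the 47 sets of a Serpina3 gene in a group with a mean of at least 1 CPM, the highest or lowest library lay far from the other 3 by Dixon's test for an outlying value, which chance does in about 1 of 20 groups. These were Serpina3c in HSC 36 h replicate 2 (0.563 CPM, low), Serpina3g in LSEC WT replicate 1 (252 CPM, low), Serpina3k in HSC 36 h replicate 3 (79.2 CPM, high) and Serpina3k in LSEC WT replicate 2 (4.01 CPM, low). In the last 2 libraries the 14 hepatocyte markers summed to 462 and 45.6 CPM, the highest and the lowest of their groups. Responses at 12 h that differed between cell types by the test of the difference were, between HSCs and LSECs, 3.26 for Serpina3f, 2.28 for Serpina3g, 2.24 for Serpina3h and 3.81 for Serpina3i on the log2 scale. Between HSCs and hepatocytes they were 4.46 for Serpina3c, 3.93 for Serpina3g and 5.31 for Serpina3n, of which Serpina3n alone passed the filter on low counts within hepatocytes, and between LSECs and hepatocytes 4.54 for Serpina3n.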

How the results depend on the processing

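Over the alternatives that kept all libraries, 1125 of 1158 fold changes of single Serpina3 genes kept their side of the threshold. In this set 10 lost a call, 23 gained a call and 0 with a call in either fit reversed their sign. Over the fits that left out 1 library these numbers were 1719 of 1776, 47, 10 and 0. A change of sign between fits that were both uncalled was counted as kept. Such a case was Serpina3f for the difference between HSC and hepatocyte responses at 12 h, which ran from -0.66 to 4.45 without 1 library. The number of Serpina3 genes called in HSCs at 36 h against WT went from 0 to 1 with no scaling, 1 with no filter, 3 with DESeq2, 2 with only the groups compared, and 0 to 2 without 1 library. In LSECs it went from 3 to 5 at 12 h against WT with only the groups compared, from 0 to 2 at 36 h with DESeq2, and between 12 h and 36 h from 1 to 2 with DESeq2 and 0 to 3 without 1 library. For the difference between HSC and hepatocyte responses it went from 3 to 5 with DESeq2 and 1 to 3 without 1 library at 12 h, and from 0 to 2 with DESeq2 and 1 with only the groups compared at 36 h. For LSEC against hepatocyte responses at 12 h it was 0 to 1 without 1 library, and 0 with the replicate block, where Serpina3n had an adjusted p of 0.0508. Libraries of these groups share only a number. The replicate block also called Serpina3m between 12 h and 36 h in HSCs (-0.78, adjusted p = 0.0212), and beside these and the paired values in the report it changed no other call. The causes of these changes were not tested.

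Over all genes, DESeq2 called 129 against 18 by edgeR in HSCs at 36 h, 462 against 229 for HSC and LSEC responses at 12 h, 991 against 503 for LSEC and hepatocyte responses at 12 h, and 7, 65 and 81 against 0, 1 and 1 for the 3 response differences at 36 h. Only the groups compared gave 45 in HSCs at 36 h, 2 in LSECs at 36 h, 380 for HSC and LSEC responses at 12 h and 1, 6 and 4 for those at 36 h. The replicate block gave 5 in LSECs at 36 h, and the Malat1 term 2 at 12 h and 10 at 36 h in hepatocytes. Without 1 library the count in HSCs at 36 h ran from 2 to 33. Without scaling factors the median of all genes in HSCs against WT hepatocytes moved from 0.21 to 0.86 and in LSECs from 0.20 to 1.01, and the higher calls from 6042 of 10851 to 7951 of 11242 and from 5867 of 10803 to 8187 of 11487. Between HSCs and LSECs in WT the median moved from 0.03 to -0.12. Levels under 3 counts in a group, as for Serpina3c in LSECs in WT and at 12 h and Serpina3h in hepatocytes, are limited by depth.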
